A study of Mus musculus with 40 samples.

Results

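Wild-type (WT) mice that carried the diffuse or the single beta-globin haplotype were compared, in 20 of the 40 RNA-seq libraries of a study that asked how these haplotypes modify beta-thalassemia. The members were all rows labelled WT. They came from 10 mice, 5 of each haplotype, and each mouse gave 1 library from bone marrow and 1 from spleen. The 4 groups of 5 libraries were thus WT diffuse bone marrow, WT diffuse spleen, WT single bone marrow and WT single spleen. The other 20 libraries, from mice heterozygous for the thalassemia allele Hbb th3, were not compared here. All mice were labelled C57BL/6J, no treatment was named, and ages and sexes are not given in the sources used here. How the diffuse haplotype came onto this strain is likewise not given. RNA came from cells bound by beads against Ter119, a surface antigen of the red cell lineage, and was made into libraries with a stranded total RNA kit. Adult globin genes held between 10110962 and 32381045 exon counts per WT library, in all 4 groups. The table lists no other marker, so the erythroid label was checked against these genes alone.

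Adult haemoglobin is built from a pair of alpha chains and a pair of beta chains, and red cell precursors make both in near balance. When beta chains are short, free alpha chains precipitate and damage the cell, which is the basis of beta-thalassemia. Inbred mice carry their adult beta genes as neighbouring pairs. The single haplotype holds Hbb-bs and Hbb-bt, which encode the same beta chain. The diffuse haplotype holds Hbb-b1 (beta-major) and Hbb-b2 (beta-minor). The upstream member of a pair, Hbb-bs or Hbb-b1, is called the first gene here, and Hbb-bt or Hbb-b2 the second gene.

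In the GRCm38 (mm10) build with the GENCODE M21 annotation, Hbb-bs (ENSMUSG00000052305.6) lies at chr7:103826534-103828096 and Hbb-bt (ENSMUSG00000073940.3) at chr7:103812524-103813996, both on the minus strand. Each has 3 exons and 2 introns, with introns of 767 bases in Hbb-bs and 770 bases in Hbb-bt. The alpha genes lie on the plus strand, Hba-a1 (ENSMUSG00000069919.7) at chr11:32283511-32284465 and Hba-a2 (ENSMUSG00000069917.7) at chr11:32296489-32297298, with introns of 256 bases each. In coding sequence Hbb-bt departs from Hbb-bs at 1 of 444 positions, C417T counted from 1 at the A of the start codon of Hbb-bs, and their 147 residues are identical. Those of Hba-a1 and Hba-a2 differ at 1 of 429 positions, C381T counted from 1 in Hba-a1, and their 142 residues are identical. The stretches around these positions are shown because the division of reads between the members of a pair, on which the results by gene turn, has only such differences to use within coding sequence. Capitals mark the differing base.
Hbb-bs: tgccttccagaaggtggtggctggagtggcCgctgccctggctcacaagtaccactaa
Hbb-bt: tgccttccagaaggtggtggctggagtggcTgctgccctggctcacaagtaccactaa
Hba-a1: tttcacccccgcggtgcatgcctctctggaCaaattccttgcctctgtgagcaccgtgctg
Hba-a2: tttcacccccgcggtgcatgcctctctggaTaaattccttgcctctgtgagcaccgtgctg

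Of all stretches of 100 bases in the Hbb-bs transcript, 62.6% also occur in the Hbb-bt transcript, and 54.8% of those of Hbb-bt occur in Hbb-bs. The same measure was 56.5% for Hba-a1 and 74.5% for Hba-a2. The length of 100 bases was chosen as an example, since the read length is not given in the sources used here. Hbb-b1 and Hbb-b2 have no position in the GENCODE annotation. The promoters of the single pair are shown because Hbb-bs and Hbb-bt differed in their counts although they encode the same chain. Whether the promoters bear on that difference was not tested. They are RefSeq sequences of GRCm38.p6, read on the minus strand from 110 to 21 bases before the start, at chr7:103827949-103828038 for Hbb-bs and chr7:103813944-103814033 for Hbb-bt. The RefSeq starts lie within the GENCODE gene spans given above, so the Hbb-bs stretch falls inside that span and the Hbb-bt stretch overlaps it. Capitals mark matches, on either strand, to 3 motifs known from beta-globin promoters. The first is CCNCNCCC, the box bound by the factor Klf1. The second is CCAAT, named after its letters. The third is TATAA, where transcription is set up.
Hbb-bs: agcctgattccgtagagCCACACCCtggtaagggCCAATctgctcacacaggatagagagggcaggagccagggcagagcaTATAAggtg
Hbb-bt: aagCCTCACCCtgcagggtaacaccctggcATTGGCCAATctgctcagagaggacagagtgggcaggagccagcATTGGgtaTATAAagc

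Over 32851 RefSeq promoters of 300 bases, 49.5% held CCNCNCCC on either strand, 37.4% held CCAAT and 24.9% held TATAA. Matches to each of the 3 motifs are thus common at that length, and these are descriptions of letters, not of bound sites. Shares over stretches of 90 bases, the length shown above, were not counted.

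The deposited values are raw read counts per gene, given apart for exons and introns. Every measure below is a ratio of counts within a library, so no library size enters it. Such a ratio also depends on the length and mappability of each gene and does not count molecules. Because the ratios are taken in bulk RNA, fewer cells of a type and less RNA per cell cannot be told apart. Haplotypes were compared within a tissue by a two-sided exact permutation test of log2 values over all 252 splits of 5 against 5 mice, whose smallest p is 0.00794. The Benjamini-Hochberg adjustment ran within families of related tests, and 0.05 was the threshold.

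WT mice of the diffuse haplotype had more beta-globin counts per alpha-globin count than those of the single haplotype, clearly so in spleen. In bone marrow the beta/alpha ratio was 3.06, 3.21, 4.18, 2.77 and 2.82 in the diffuse mice BZC1004, BZC1012, BZC1014, BZC995 and BZC997. It was 2.66, 2.89, 2.502, 2.04 and 2.92 in the single mice BZC996, JAW2586, JAW2588, JAW2639 and JAW2645. The groups overlapped, with BZC995 and BZC997 below the highest single mouse and BZC1014 far above all others. The ratio averaged 3.21 ± 0.572 in diffuse and 2.60 ± 0.357 in single bone marrow (SD, n = 5 each), a log2 difference of 0.30 (95% interval 0.0018 to 0.65, exact permutation adjusted p = 0.0476). In spleen, in the same order of mice, it was 2.80, 2.73, 2.73, 2.67 and 3.76 in diffuse and 2.14, 2.35, 1.88, 2.03 and 2.22 in single libraries. These groups did not overlap, and 4 of the 5 diffuse spleens lay within a narrow band. The spleen means were 2.94 ± 0.463 and 2.12 ± 0.178 (SD, n = 5 each), a log2 difference of 0.46 (0.25 to 0.71, exact permutation adjusted p = 0.0159).

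The bone marrow call rested on few mice. It ended when any of BZC1004, BZC1012, BZC1014, BZC996, JAW2588 or JAW2639 was left out (log2 difference 0.20 to 0.31, exact permutation adjusted p up to 0.127), whereas the spleen call held without any 1 of the 10 mice (0.37 to 0.50). It also ended once the small intron counts were subtracted from the exon sums (0.29, exact permutation adjusted p = 0.0556), an alternative chosen after the data were seen. That form is, to rounding, the inverse of the alpha to beta ratio deposited by the authors.

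**Figure D1:**
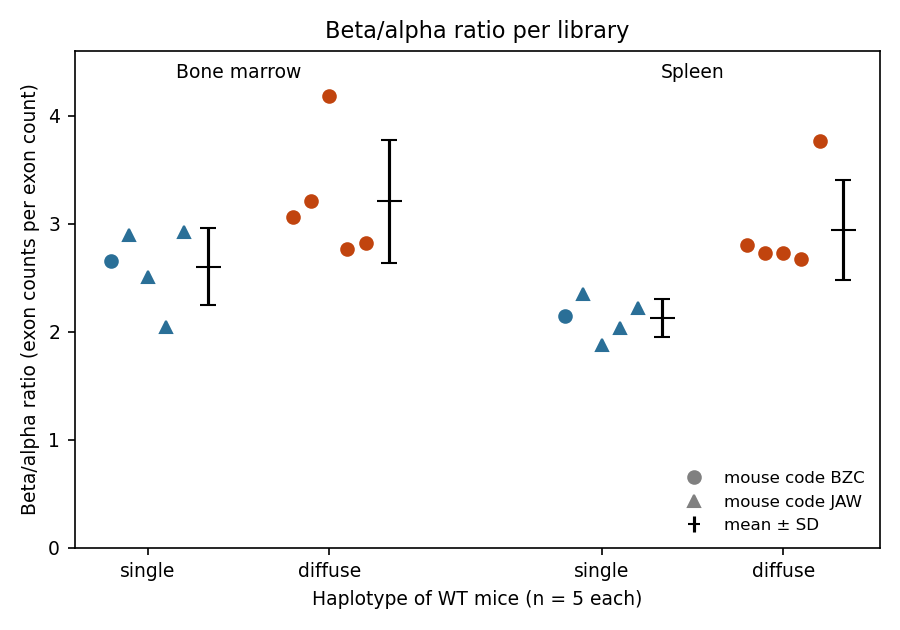
Each point is the beta/alpha ratio of exon counts in 1 WT library, by tissue and haplotype, with the mean and SD of 5 mice beside it and the marker shape giving the series of the mouse code. In spleen the lowest diffuse library at 2.67 lay above the highest single library at 2.35, whereas in bone marrow 3 of 5 diffuse libraries lay above all single ones.

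The first gene accounted for most beta counts on either haplotype, and Hbb-b1 had more uniquely assigned counts per alpha count than Hbb-bs. In bone marrow Hbb-b1 per alpha count was 2.58, 2.73, 3.53, 2.33 and 2.37 in the diffuse mice, in the order above, and Hbb-bs per alpha count was 1.76, 1.99, 1.67, 1.38 and 2.02 in the single mice. In spleen the values were 2.35, 2.29, 2.25, 2.23 and 3.22 for Hbb-b1 and 1.40, 1.55, 1.22, 1.33 and 1.52 for Hbb-bs. The groups did not overlap in either tissue. The mean of 2.71 ± 0.486 for Hbb-b1 against 1.76 ± 0.260 for Hbb-bs in bone marrow (SD, n = 5 each) gave a log2 difference of 0.62 (0.29 to 0.99, exact permutation adjusted p = 0.00794). In spleen 2.47 ± 0.424 against 1.40 ± 0.136 (SD, n = 5 each) gave 0.80 (0.56 to 1.08, exact permutation adjusted p = 0.00794).

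The second gene followed the same order at a lower level. In bone marrow Hbb-b2 per alpha count was 0.472, 0.476, 0.649, 0.440 and 0.446, and Hbb-bt per alpha count was 0.439, 0.429, 0.407, 0.349 and 0.420. In spleen the values were 0.447, 0.440, 0.483, 0.441 and 0.540 for Hbb-b2 and 0.365, 0.394, 0.320, 0.319 and 0.380 for Hbb-bt. No groups overlapped, although in bone marrow the lowest Hbb-b2 value and the highest Hbb-bt value were nearly equal. The log2 difference was 0.27 (0.053 to 0.56) in bone marrow and 0.40 (0.20 to 0.61) in spleen, each with an exact permutation adjusted p of 0.00794. Relative to its first gene, Hbb-b2 stood lower than Hbb-bt, with a second-to-first count ratio of 0.184 ± 0.00594 against 0.234 ± 0.0203 in bone marrow and 0.193 ± 0.0170 against 0.253 ± 0.00951 in spleen (SD, n = 5 each). Those log2 differences were -0.35 (-0.48 to -0.19) and -0.40 (-0.54 to -0.26), with all 5 diffuse libraries below all single ones in each tissue (exact permutation adjusted p = 0.00794).

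**Figure D2:**
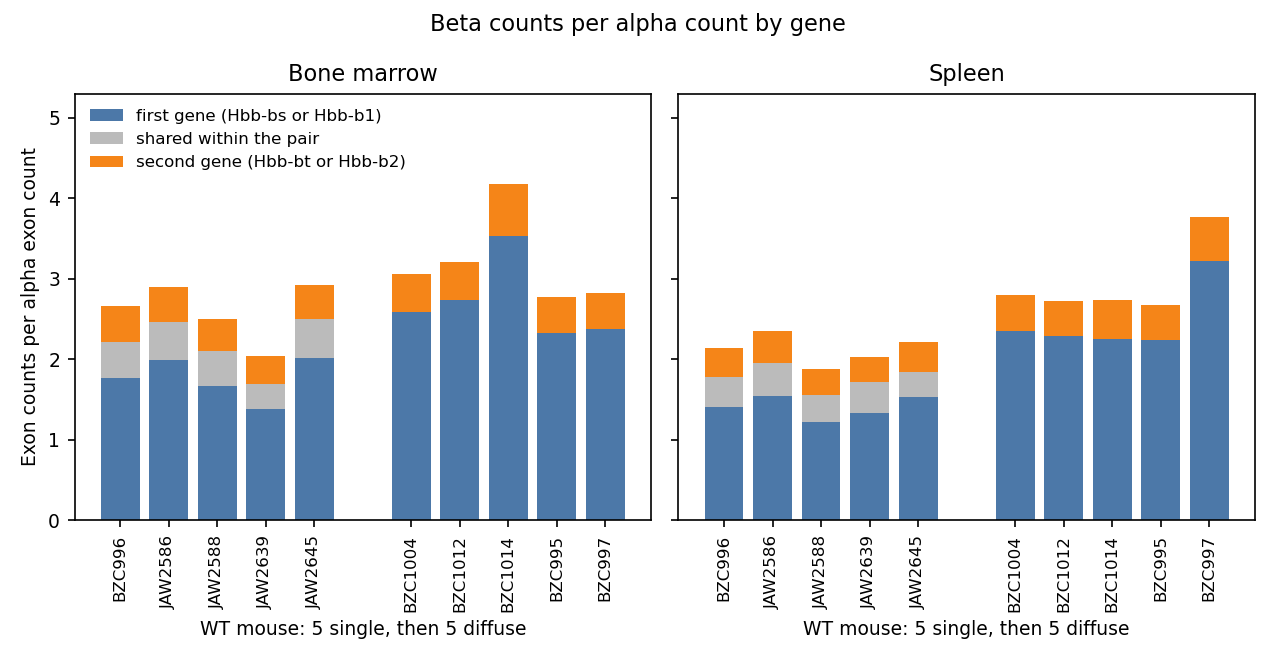
Stacked bars give exon counts per alpha exon count in each WT library for the first gene, the reads shared within the pair and the second gene, with 5 single and then 5 diffuse mice in each tissue. A band of shared reads, 0.311 to 0.478 per alpha count, appears in all single libraries, and that of the diffuse libraries is too thin to see.

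These comparisons by gene left out the reads that could not be given to 1 gene, and such reads were nearly all in the single libraries. Reads shared within the single pair, the diffuse pair and the alpha pair were read from the columns Hbb-single, Hbb-diffuse and Ambiguous, a meaning that the headers do not state. Reads shared by Hbb-bs and Hbb-bt took 14.1% to 18.6% of beta counts in the 10 single libraries. Reads shared by Hbb-b1 and Hbb-b2 took 0.0054% to 0.0093% in the 10 diffuse libraries. The ranges were far apart, and no test was run on them. How the authors assigned such reads is not given in the sources used here, and its part in this difference was not tested. In introns the shared part was 7.99% to 11.5% of beta counts in single and 0.139% to 0.807% in diffuse libraries.

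How the shared reads were divided decided several of the calls by gene. Divided in proportion to the unique counts, the second gene per alpha count no longer differed past the threshold, with log2 differences of 0.0099 in bone marrow (exact permutation adjusted p = 0.944) and 0.13 in spleen (exact permutation adjusted p = 0.169). The first gene then stood 0.36 higher in diffuse bone marrow, which missed the threshold (exact permutation adjusted p = 0.0952), and 0.53 higher in diffuse spleen, which passed (exact permutation adjusted p = 0.0317). With all shared reads given to Hbb-bs, the second-to-first ratio differed by only -0.031 in bone marrow and -0.066 in spleen (exact permutation adjusted p = 0.619 for each). The first gene in bone marrow, at 0.30, missed the threshold there too (exact permutation adjusted p = 0.0714). With all of them given to Hbb-bt, the second gene turned to lower in diffuse mice, by -0.76 in bone marrow and -0.61 in spleen (exact permutation adjusted p = 0.00794). The higher first gene in spleen was the result by gene that passed under all 4 divisions, with log2 differences of 0.47 to 0.80. By construction, giving all shared reads to the second gene left the value of the first gene unchanged. Division in proportion likewise left the second-to-first ratio unchanged.

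**Figure D3:**
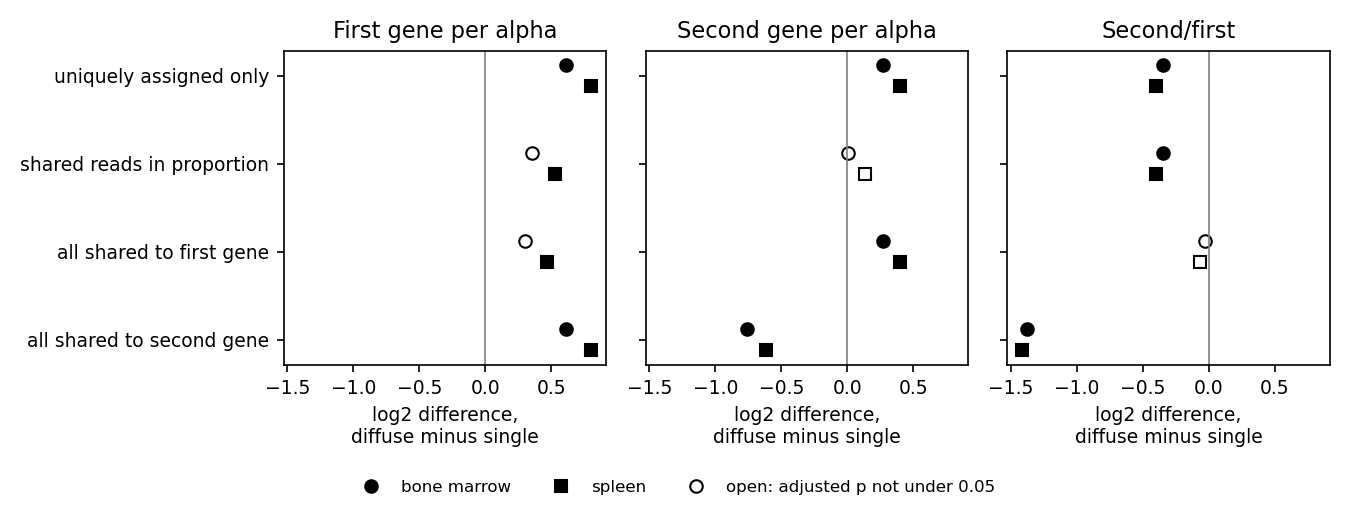
Points give the log2 difference, diffuse minus single, of the first gene per alpha count, the second gene per alpha count and the second-to-first ratio under 4 ways of dividing shared beta reads, with circles for bone marrow, squares for spleen and open symbols where the exact permutation adjusted p was not under 0.05. The second gene moved from 0.40 to -0.61 in spleen between the divisions, and the first gene in spleen stayed above 0.47.

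A count model was also fitted to the uniquely assigned reads. edgeR's quasi-likelihood test with the alpha sum as offset called 2 of 5 features (40%) in bone marrow and 3 of 5 (60%) in spleen, where the 5 features are the members themselves. The first gene was higher in diffuse mice by 0.62 in bone marrow (SE 0.134, edgeR adjusted p = 0.00109) and by 0.81 in spleen (SE 0.135, adjusted p = 0.000103). The second gene was higher by 0.28 in bone marrow (SE 0.0991, edgeR adjusted p = 0.0278) and by 0.40 in spleen (SE 0.0992, adjusted p = 0.00242). The fit holds 2 libraries of each mouse with no term for the mouse. Fitted on 1 tissue alone, edgeR called 3 of the 10 tests, with the second gene in bone marrow (0.28, adjusted p = 0.0599) and the shared alpha reads in spleen (-0.10, adjusted p = 0.0515) no longer past the threshold. The second gene in bone marrow also lost its edgeR call without BZC1014, JAW2588 or JAW2639 (log2 difference 0.17 to 0.28, adjusted p 0.0512 to 0.0756). Hbb-bs with Hbb-b1 and Hbb-bt with Hbb-b2 were each treated as 1 feature, so these tests set different genes of like position against each other.

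The alpha genes, which lie on another chromosome than the Hbb haplotypes, kept nearly the same division in both groups of mice. The ratio of Hba-a2 to Hba-a1 counts was 0.652 ± 0.0182 in diffuse and 0.660 ± 0.0223 in single bone marrow, while spleen had 0.687 ± 0.0253 and 0.697 ± 0.0207 (SD, n = 5 each). Log2 differences of -0.016 (-0.090 to 0.056) and -0.023 (-0.10 to 0.061) did not pass (exact permutation adjusted p = 0.571 for each). Shared alpha reads made up 32.0% ± 1.42 of alpha counts in diffuse and 33.6% ± 1.59 in single bone marrow, and 31.4% ± 1.32 and 33.6% ± 1.40 in spleen (SD, n = 5 each). The odds of a shared alpha read differed by -0.11 (-0.25 to 0.044) and -0.15 (-0.27 to -0.033) on the log2 scale, and neither passed (exact permutation adjusted p = 0.270 and 0.159). In spleen the difference passed when JAW2586, the single mouse with the lowest share, was left out (-0.19, exact permutation adjusted p = 0.0317). edgeR, relative to the alpha sum, called these shared reads lower in diffuse spleen (-0.10, SE 0.0390, adjusted p = 0.0381), a call that ended in 5 of 10 leave-one-out fits. Hba-a1 and Hba-a2 did not pass in either tissue with edgeR (log2 differences 0.025 to 0.057, adjusted p 0.0746 to 0.276). Both genes are part of the alpha sum used as offset, so these values describe only their share of alpha counts. Their sign in bone marrow turned with each of the 3 other scalings tried. Those scalings include the beta genes, which had more counts per alpha count in diffuse mice.

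Intron counts showed a larger contrast between the haplotypes than exon counts did. Reads in introns come mostly from transcripts that are not yet spliced, although DNA carried into a library gives them too. The ratio of beta to alpha intron counts in bone marrow was 2.20, 1.63, 2.00, 1.93 and 2.10 in the diffuse mice, in the order above, against 0.736, 0.747, 0.815, 0.781 and 0.717 in the single mice. In spleen it was 2.17, 2.01, 2.10, 4.14 and 4.99 against 0.853, 0.804, 0.842, 0.938 and 0.984. The haplotypes did not overlap in either tissue, and the 10 single libraries all stayed below 1. The log2 difference was 1.37 (1.18 to 1.55), a fold of 2.59, in bone marrow and 1.69 (1.14 to 2.42), a fold of 3.23, in spleen (exact permutation adjusted p = 0.0159 for each). Both calls held without any 1 of the 10 mice and with uniquely assigned reads alone (1.36 and 1.63). Using unique reads alone left out most of the denominator. Shared reads made up 78.4% to 89.1% of alpha intron counts in the 20 WT libraries. RefSeq gene spans in GRCm38.p6 are 1400 bases for Hbb-b1 and 1406 for Hbb-bs, and 1374 for Hbb-b2 and 1400 for Hbb-bt. These spans are not intron lengths, which were not available for Hbb-b1 and Hbb-b2. The part of intron length in the contrast was not tested. A difference in the assignment of intron reads cannot be told apart from one in unspliced RNA.

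Set against their own exon counts, beta introns were more abundant in diffuse bone marrow. There were 0.102, 0.142, 0.130, 0.137 and 0.128 beta intron counts per 100 beta exon counts in the diffuse and 0.0747, 0.0546, 0.0578, 0.0672 and 0.0669 in the single mice. The groups did not overlap, and the log2 difference was 0.99 (0.70 to 1.26), a fold of 1.99 (exact permutation adjusted p = 0.0159). In spleen the values were 0.115, 0.0878, 0.160, 0.0375 and 0.0400 against 0.0573, 0.05003, 0.0474, 0.0248 and 0.0225. Both spleen groups spread widely and overlapped, and the log2 difference of 1.00 (-0.34 to 2.21) did not pass (exact permutation adjusted p = 0.131), although limma passed it (adjusted p = 0.0170). The limma fit pooled the spread of bone marrow and spleen libraries and had no term for the mouse. Alpha introns per alpha exon count, the comparison within the same libraries, did not pass in bone marrow (0.213 ± 0.0613 against 0.221 ± 0.0477 per 100, log2 difference -0.081, interval -0.65 to 0.52) or in spleen (0.106 ± 0.0787 against 0.100 ± 0.0466 per 100, -0.23, -2.20 to 1.47; SD, n = 5 each, exact permutation adjusted p = 0.746 for each).

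In spleen 4 libraries, 2 of each haplotype, held few introns. The diffuse mice BZC995 and BZC997 had 0.0242 and 0.0302 alpha intron counts per 100 alpha exon counts in spleen, and the single mice JAW2645 and JAW2639 had 0.0506 and 0.0538. The other 6 spleens held 0.106 to 0.208. The bone marrow libraries of the same 4 mice were not low, with 0.172 to 0.272. What set these 4 spleen libraries apart is not given in the labels and was not tested. Without them, 3 mice stood against 3, no p under 0.1 was possible, and the log2 differences in spleen were 1.33 for the intron beta/alpha ratio and 1.19 for beta introns per exon count, with no overlap in either. This alternative was chosen after the data were seen, and the beta/alpha ratio of exon counts there was 0.38 higher in diffuse mice.

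**Figure D4:**
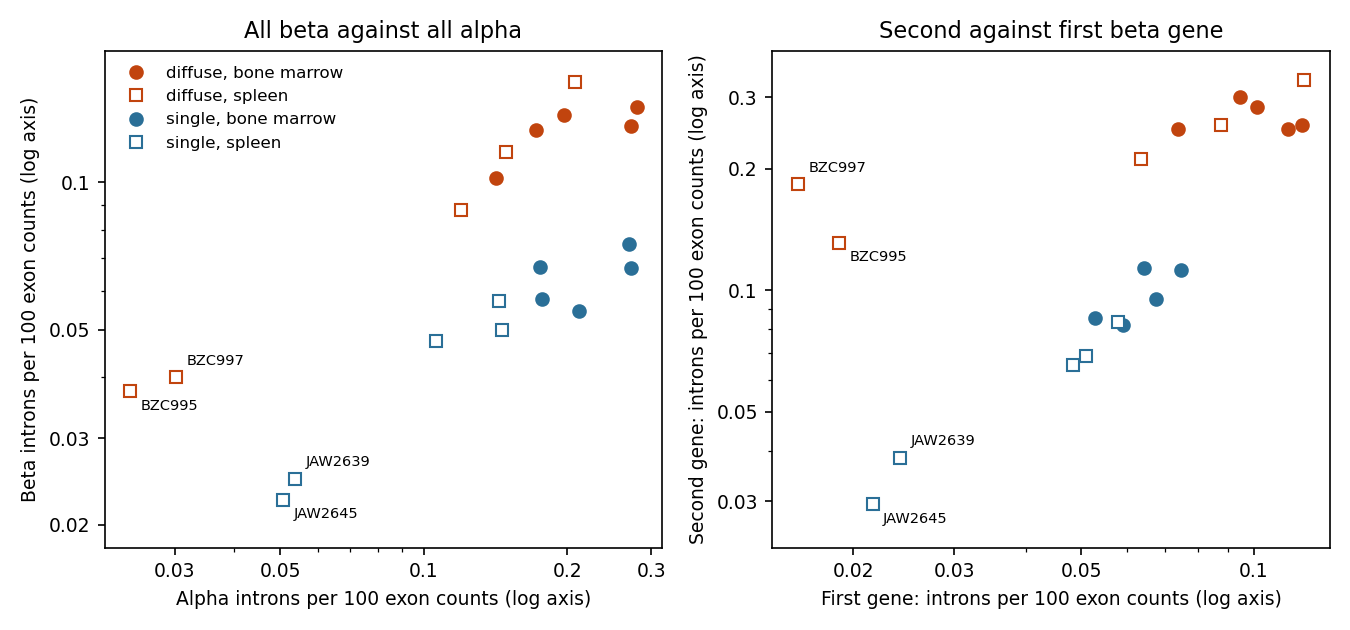
Each point is 1 WT library, with intron counts per 100 exon counts on log axes for all alpha genes against all beta genes, and for the first against the second beta gene, where filled circles are bone marrow, open squares are spleen and mouse codes name the 4 spleens with few introns. At a like alpha value the diffuse libraries lay above the single ones, with 0.102 to 0.142 against 0.0546 to 0.0747 beta introns per 100 exon counts in bone marrow.

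Per exon count, introns of the second gene showed the larger fold between the haplotypes, although the difference between the genes was not itself tested. Tests of introns by gene were added after the data were seen, and were adjusted over the 4 of them. In bone marrow Hbb-b2 had 0.251, 0.256, 0.284, 0.251 and 0.300 intron counts per 100 exon counts in the diffuse mice, and Hbb-bt had 0.112, 0.0852, 0.0820, 0.0949 and 0.114 in the single mice. In spleen Hbb-b2 had 0.256, 0.212, 0.331, 0.131 and 0.183, and Hbb-bt had 0.0832, 0.0685, 0.0651, 0.0384 and 0.0295. Every diffuse library lay above every single library of its tissue, those with few introns included. The log2 difference was 1.47 (1.17 to 1.73), a fold of 2.77, in bone marrow and 2.00 (1.14 to 2.87), a fold of 4.00, in spleen (exact permutation adjusted p = 0.0159 for each).

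For the first gene the fold was smaller. In bone marrow Hbb-b1 had 0.0739, 0.121, 0.101, 0.115 and 0.0947 intron counts per 100 exon counts, and Hbb-bs had 0.0745, 0.0528, 0.0591, 0.0674 and 0.0642. BZC1004 lay just below the single mouse BZC996 and above the JAW mice, and the other 4 diffuse mice lay above all single mice. The log2 difference was 0.66 (0.29 to 0.99), a fold of 1.58 (exact permutation adjusted p = 0.0212). In spleen Hbb-b1 ranged from 0.0160 to 0.123 and Hbb-bs from 0.0216 to 0.0580, and the difference of 0.29 (-1.60 to 1.86) did not pass (exact permutation adjusted p = 0.659). Without the 4 spleens with few introns it was 0.75, with all 3 remaining diffuse mice above the 3 single mice and no p under 0.1 possible. Per alpha intron count in bone marrow, the first gene stood at 1.30 ± 0.0692 in diffuse and 0.509 ± 0.0335 in single mice, and the second gene at 0.658 ± 0.163 and 0.181 ± 0.00701 (SD, n = 5 each). The larger part of the added beta introns there thus lay in the first gene. Exon and intron counts of the single genes both leave out shared reads, which took 14.1% to 18.6% of beta exon and 7.99% to 11.5% of beta intron counts. How this shifts the intron values of each gene depends on the division of the shared reads, and was not tested.

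Within the diffuse pair Hbb-b2 had fewer intron counts than Hbb-b1 in 8 of 10 libraries. The count ratio of second-gene to first-gene introns was 0.621, 0.368, 0.516, 0.413 and 0.596 in diffuse bone marrow and 0.557, 0.642, 0.580, 1.37 and 1.91 in diffuse spleen. BZC995 and BZC997, the diffuse spleens with few introns, were thus the libraries in which Hbb-b2 introns outnumbered those of Hbb-b1, with 4582 against 3336 and 2095 against 1094 counts. In the 10 single libraries the ratio of Hbb-bt to Hbb-bs introns, which are of nearly equal length, stayed between 0.337 and 0.381, also in JAW2639 and JAW2645. These ratios of counts are not per length on the diffuse haplotype, and no test was run on them.

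The haplotype difference was not shown to differ between tissues. The 2 libraries of a mouse were joined by its code, and the change from bone marrow to spleen was compared between the haplotypes over 7 measures. The log2 difference of the beta/alpha ratio between haplotypes was 0.16 larger in spleen (-0.23 to 0.55, exact permutation adjusted p = 0.736). For the first gene per alpha count it was 0.19 larger (-0.24 to 0.60), for the second gene 0.13 larger (-0.13 to 0.41) and for the intron beta/alpha ratio 0.32 larger (-0.26 to 1.04), and none of the 7 passed (exact permutation adjusted p 0.736 to 0.976). These intervals leave room for differences of either sign. Within mice the beta/alpha ratio was lower in spleen than in bone marrow in 5 of 5 single and 4 of 5 diffuse mice, with BZC997 the exception.

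The mouse codes fell into series that nearly matched the haplotypes, so a batch of mice cannot be told apart from the haplotype in these comparisons. All 5 diffuse mice had codes beginning BZC, and of the single mice only BZC996 did, whereas the other 4 began JAW. What the series stand for is not stated. In spleen BZC996 had 1.40 Hbb-bs counts and 0.365 Hbb-bt counts per alpha count, within the range of the JAW mice and below all diffuse mice. In bone marrow its Hbb-bs value of 1.76 also lay within the JAW range of 1.38 to 2.02, but its Hbb-bt value of 0.439 lay above the JAW range of 0.349 to 0.429 and next to the lowest Hbb-b2 value of 0.440. Beta introns per alpha intron in this mouse were 0.736 in bone marrow and 0.853 in spleen, within the JAW ranges of 0.717 to 0.815 and 0.804 to 0.984. Its beta introns per 100 exon counts in bone marrow, at 0.0747, were the highest of the single mice and below the lowest diffuse value of 0.102. For Hbb-bs alone its bone marrow value of 0.0745 lay above the JAW range of 0.0528 to 0.0674. That value also lay above the lowest Hbb-b1 value of 0.0739. In spleen its beta introns per 100 exon counts also lay above the JAW range, at 0.0573 against 0.0225 to 0.05003. By gene they were 0.0580 against 0.0216 to 0.0510 for Hbb-bs and 0.0832 against 0.0295 to 0.0685 for Hbb-bt. Shared alpha reads took 36.3% of its alpha counts in bone marrow, above the JAW range of 32.2% to 33.5%.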

How the data were processed

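RNA-seq reads of adult globin genes were counted in Ter119+ cells of bone marrow and spleen. The deposited table holds raw read counts per gene for exons and introns, made by the authors. STAR 2.7.9a, STAR 2.5.3a, SAMtools, HTSeq and mm10 are named in the submitters' processing notes, with no roles. Strand setting, treatment of multiply mapped reads and the reference used for Hbb-b1 and Hbb-b2 are not given in the sources used here. A ratio of alpha to beta counts deposited by the authors, used as a check, differed from the summed exon counts by at most 0.000735 and equalled them, to rounding, once intron counts were subtracted. The other 29 columns of values per sample were not used. Rows carry mouse codes, tissue, genotype and haplotype but no replicate number, so only the group of a row was used. Each mouse code was taken as 1 animal, which no label states, so p-values measure the spread between codes. No libraries of a group agreed within sampling noise.

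Beta counts sum the 4 beta genes and their shared reads, and alpha counts sum both alpha genes with theirs. With 10110962 to 32381045 exon counts a library, the spread between mice far exceeded counting error. Intron counts were fewer, down to 641 for alpha and 621 for a second gene. Log2 values were compared by exact permutation over 252 splits, with 95% intervals from inverting the test. Benjamini-Hochberg families held 2 tests for beta/alpha, 4 for single genes, 2 for the second-to-first ratio, 6 for introns, 4 for alpha genes, 7 for the tissue difference and 4 for the added introns by gene. edgeR's quasi-likelihood test ran on 20 WT libraries and 5 features, adjusted over 10 tests, without reads shared within a beta pair. The methods were tested on simulated data. All globin genes and shared columns of the table are named. The members and lists were chosen with earlier results of these data known. Alternatives were other denominators and divisions of shared reads, the linear scale, unique reads alone, limma, DESeq2, other offsets and filters, and leaving out each mouse. The tools were R 4.3.3 with DESeq2 1.42.0, edgeR 4.0.16 and limma 3.58.1, and Python 3.11.15 with pandas 2.3.3, scipy 1.17.1, numpy 2.4.6 and matplotlib 3.10.9.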

Additional observations from a re-analysis of the deposited data

Results flagged for a closer look

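In 5 of 44 sets of 5 libraries, 1 library stood far from the other 4, where chance alone gives about 1 in 20. The sets share libraries and counts and so are not independent, and no excess was tested. Hbb-b2 per alpha count in diffuse bone marrow was 0.649 in BZC1014 and 0.440 to 0.476 in the others. In diffuse spleen BZC997 had a beta/alpha ratio of 3.76, against 2.67 to 2.80, and 3.22 Hbb-b1 counts per alpha count, against 2.23 to 2.35. It was also 1 of the 4 spleens with few introns. Without BZC997 the log2 difference of the beta/alpha ratio in spleen was 0.37 and that of the first gene 0.70, and both passed the exact permutation test (adjusted p up to 0.0159). The share of alpha counts shared by Hba-a1 and Hba-a2 was 29.1% in the diffuse spleen of BZC995, against 31.5% to 32.2%. It was 31.2% in the single spleen of JAW2586, against 34.1% to 34.5%.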

How the results depend on the processing

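Of 438 recomputed values of the main comparisons, 388 kept their direction and side of the threshold, 23 lost the threshold, 2 gained it, 21 turned sign and 4 counts moved by over 1.5 times. The 388 include comparisons that did not pass in the main form and again did not pass, so they do not measure how well the calls held. In bone marrow the beta/alpha call ended with Hba-a1 alone (0.25), Hba-a2 alone (0.27) or no shared alpha reads (0.26) as denominator, and with introns subtracted (0.29), and the second gene's with Hba-a1 alone (0.23). With shared reads in proportion the first gene gave 0.36 in bone marrow and the second gene 0.0099 and 0.13. With all given to the first gene it gave 0.30 and the second-to-first ratio -0.031 and -0.066. With all given to the second gene that gene gave -0.76 and -0.61. Limma passed beta introns per exon in spleen (1.00). Alpha introns per exon turned sign on the linear scale in spleen (0.00599 per 100), with unique reads in bone marrow (0.022) and without the 4 low-intron spleens (0.24). The difference between tissues turned sign on the linear scale for beta (-0.0160 per 100) and alpha introns (0.0148 per 100). Without those 4 spleens no spleen call could pass, at 0.38 for beta/alpha, 0.73 for the first and 0.35 for the second gene, -0.38 for their ratio, 1.33 for the intron beta/alpha ratio and 1.87 for second-gene introns. edgeR called 5 of 10 tests, 3 with TMM factors or 1 tissue alone, and 3 to 6 without 1 mouse. Hba-a1 and Hba-a2 turned sign in bone marrow with TMM (-0.0999 and -0.118), in bone marrow and spleen with DESeq2 size factors (-0.027 and -0.038 for Hba-a1, -0.044 and -0.061 for Hba-a2) and with all globin counts as offset (-0.17 and -0.26, -0.19 and -0.29). Those scalings include the beta genes, unlike the alpha sum. Without 1 mouse, beta/alpha in bone marrow ranged from 0.196 to 0.345, shared alpha reads in spleen from -0.190 to -0.110, first-gene introns in spleen from -0.061 to 0.673, alpha introns from -0.193 to 0.053 in bone marrow and -0.592 to 0.184 in spleen. The tissue difference ranged from -0.104 to 0.0032 for the second-to-first ratio, -0.257 to 0.286 for beta introns and -0.525 to 0.250 for alpha introns. The causes were not tested. No paired analysis was possible because between haplotypes the rows carry no replicate number and no mouse has both haplotypes. Mouse codes paired the tissues of a mouse only. The table lists only globin genes, so changes relative to all RNA were not analysed here.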

Other observations

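Traces of the haplotype not carried were rare and more variable in spleen. Per 1000000 beta counts, Hbb-bs and Hbb-bt together took 287 to 347 in the 5 diffuse bone marrow libraries and 265 to 1045 in the 5 diffuse spleens. Hbb-b1 and Hbb-b2 together took 125 to 196 in the 5 single bone marrow libraries and 297 to 1146 in the 5 single spleens. The highest values were in the spleens of BZC1012 and JAW2588, mostly from the first gene, with 666 Hbb-bs and 944 Hbb-b1 counts per 1000000. In diffuse bone marrow the second gene took more, with 238 to 303 Hbb-bt against 43.2 to 81.1 Hbb-bs counts per 1000000. Among diffuse spleens Hbb-bt took more in BZC1004, BZC1014 and BZC995, and Hbb-bs more in BZC1012 and BZC997. In the single libraries Hbb-b1 took more than Hbb-b2. The column of reads shared within the pair not carried was at 0 in all 20 libraries. Introns of the genes not carried had 2 to 20 counts a library.

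Within a library, beta introns per exon count were 0.479 to 0.744 of the alpha value in diffuse and 0.246 to 0.382 in single bone marrow. The same quotient in spleen was 0.735 to 1.55 in diffuse and 0.343 to 0.462 in single libraries. BZC995 at 1.55 and BZC997 at 1.32 were the diffuse spleens in which beta introns per exon exceeded those of alpha. This quotient was formed after the data were seen, its haplotype groups did not overlap, and no test was run on it.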
